A study of Mus musculus with 6 samples.

Results

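Hearts of a transgenic mouse line with low cardiac expression of fatty acid synthase (FASN) were compared with hearts of B6 control mice on 4 of the 6 expression arrays of the study, 2 arrays in each group. The 4 arrays were chosen by their titles, and all 45037 probe sets that are not array controls were taken, of which 22519 were bright enough to be tested. The low-FASN line carries its transgene under the alpha-MHC promoter, whose activity is typical of cardiomyocytes. All mice were male, carry the strain label C57BL/6J and were matched for age, which the sources do not state in figures. The other 2 arrays came from a line with high cardiac FASN from the same promoter; they enter the estimate of the spread and are set side by side with the low line where the lines differ. The tissue label calls all 6 hearts transgenic, controls included, so the groups follow the titles. Because each FASN level is a single line, effects of the level and of other features of the line cannot be told apart. The labels also leave unsaid whether a group's 2 arrays are 2 hearts, and the p-values therefore measure array-to-array spread that may be technical.

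FASN builds palmitate, a long-chain saturated fatty acid, from acetyl-CoA and malonyl-CoA, using NADPH. Adult heart muscle makes little fatty acid and instead burns imported fatty acids, with glucose, lactate and ketone bodies as further fuels, and the nuclear receptor PPAR alpha drives many of the genes for this. Stressed hearts are known for changes in fuel genes, in ion channels and Z-disc proteins, in immediate early transcription factors and in the balance between protein folding and breakdown.

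The Fasn probe set read 462 and 481 signal units in the low line, 213 and 187 in controls and 2268 and 2104 in the high line. The low line was above both control arrays, and its log2 difference from control was 1.17 ± 0.0927 (SE; limma, adjusted p = 4.33e-05). Signals are in arbitrary units. Every log2 difference below is the mean of log2(signal + 16) in the low line minus that in control, with 2 arrays in each group, and is followed by its SE. Adding 16 makes the difference of a dim gene smaller than the ratio of its signals.

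The labelled tissue carried its defining markers. All 7 cardiomyocyte markers, such as the myosin gene Myh6 (27487 and 27876 in the low line, 30897 and 30149.8 in control), were bright, while all 4 skeletal muscle markers stayed under 50 units. The 7 cardiomyocyte markers summed to 147886 and 150488 in the low line against 166843 and 160496 in control, and 1 of them, Tnnt2, was lower. Marker sums of several other cell types were higher. The 4 smooth muscle markers, all higher, summed to 11380 and 11074 against 5196 and 5017. The 4 adipocyte markers on the array, 3 of them tested and higher, summed to 1945 and 2055 against 235 and 173, and Lep was dim. The 4 mesothelial markers, 3 of them higher, summed to 1271 and 1205 against 625 and 568. The B and plasma cell markers, 2 of 4 tested and higher, summed to 617 and 611 against 80.3 and 98.2. The 6 macrophage markers summed to 8226 and 8473 against 7920 and 8108, with Adgre1 higher and Cd163 lower. Of 4 airway markers, Scgb1a1 alone passed the test and was higher, and the list's median log2 difference was -0.29. As an RNA measure, the 3-prime minus 5-prime difference of the Gapdh control probes was -0.30 and -0.33 on the log2 scale in the low line, -0.07 and -0.07 in the controls and -0.14 and -0.18 in the high line. The part of these differences in the results below was not tested, and in whole tissue more cells of a type cannot be told apart from more RNA per cell.

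Across all tested probe sets, 5494 of 22519 (24.4%) differed between the low line and control at an adjusted p below 0.05. Of these, 3052 (13.6%) were higher and 2442 (10.8%) lower, and 626 (2.78%) differed by at least 1 on the log2 scale. Higher calls made up 55.6% of all calls; with each array centred on its median this share was 39.1%. The high line, set against the same 2 control arrays, had 3246 calls (14.4%), and the low line differed from the high line at 4165 probe sets (18.5%). Leaving out the first or second low array left 2925 or 2930 calls against control, and leaving out the first or second control array left 3388 or 3224. With the brightest probe set taken for each of 11512 tested genes, 14.9% were higher and 12.7% lower, 1.66% were higher and 0.947% lower by at least 1, and the median log2 difference was 0.02. Calls also depended on brightness. With the tested probe sets split into 5 groups by mean signal, 17.7% of the brightest group were higher and 25.5% lower, with a median of -0.05. In the dimmest group 4.4% were higher and 2.22% lower. The shares of all tested genes set beside the lists below take no account of this. The number of arrays limits the precision. A probe set with a mean under 49.0 units in 1 group was tested only through the other groups. For such a probe set, a difference between groups is partly built into the filter.

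**Figure D1:**
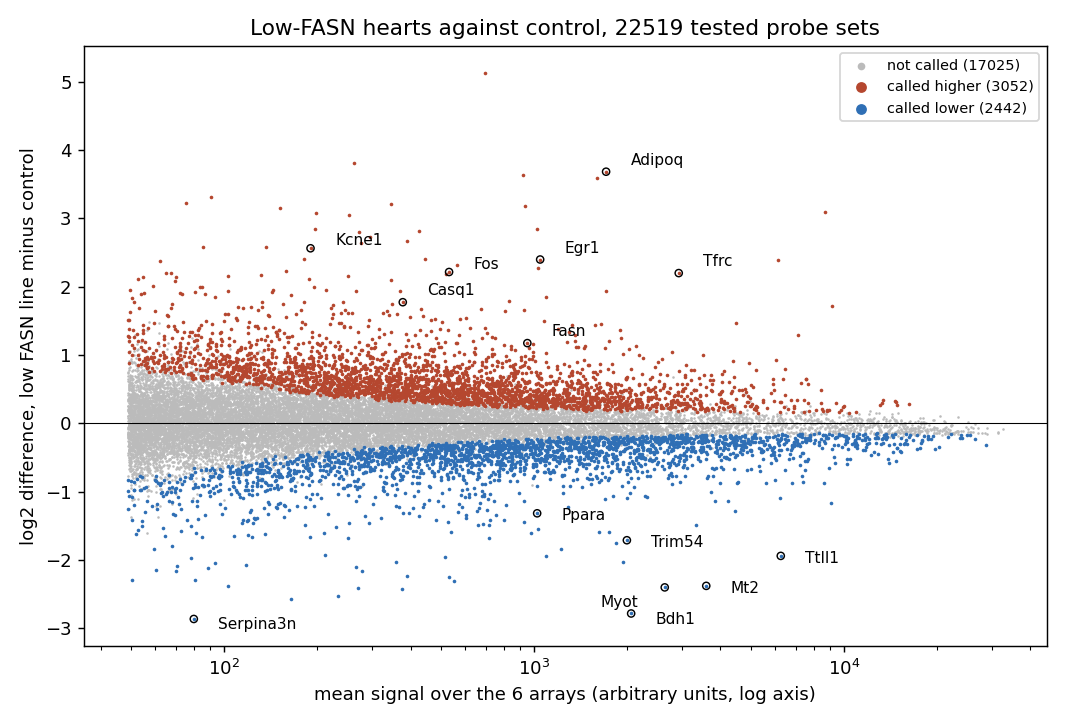
Each point is 1 of the 22519 tested probe sets, with its mean signal over the 6 arrays (arbitrary units, log axis) against its log2 difference between the low FASN line and control. Red points (3052) were called higher and blue points (2442) lower; among the circled genes Tfrc and Egr1 rose by over 2 at high signal and Bdh1 fell by 2.78.

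The largest rises outside matrix, immunoglobulin and heat shock genes included the fat cell genes Car3, Adipoq and Ucp1, the airway gene Scgb1a1 and the desaturase gene Scd1. Other large rises belong to lipid and liver-type metabolism or to the acute phase. Pck1, the enzyme that commits carbon to glyceride and glucose formation, read 253 and 143 in the low line against 25.7 and 7.21 in control (2.73 ± 0.304, adjusted p = 0.000281). Apoc1, an apolipoprotein, read 151 and 163 against 14 and 11.8 (2.58 ± 0.209, adjusted p = 4.83e-05). Hp, which encodes the haemoglobin scavenger haptoglobin, read 440.2 and 493 against 102 and 54.2 (2.40 ± 0.206, adjusted p = 6.56e-05). These 3 genes were picked as large called rises, so a gap between the groups is part of the choice. Cyp2e1, a microsomal cytochrome P450, rose by 2.31 ± 0.11 (949.7 and 925 against 195 and 158) and Tmem45b, a membrane protein gene, by 2.66 ± 0.141 (259 and 303 against 28.1 and 33.6). The adipocyte markers summed above moved with these genes. The filter asked for a mean of at least 49.0 units over the 6 arrays. In control, Pck1, Apoc1, Tmem45b, Ucp1 and Scgb1a1 lay below that, so they were tested only through the transgenic arrays.

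Other large rises fell on membrane excitability, signalling and iron uptake. Kcne1, the beta subunit of the slow delayed rectifier potassium channel, read 355 and 420.1 in the low line, 43.8 and 61.6 in the controls and 151 and 110.1 in the high line, a rise of 2.56 ± 0.206 (adjusted p = 4.71e-05). Prkar2b, a regulatory subunit of the cAMP-dependent protein kinase that is abundant in fat, rose by 2.40 ± 0.183 (209.5 and 184 against 19.9 and 29.0). Clec7a, the beta-glucan receptor of myeloid cells, rose by 2.16 ± 0.128 (427 and 429.9 against 86.7 and 80.7). In each of these genes both low arrays lay above both control arrays. Tfrc, the transferrin receptor through which cells take up iron, was the brightest of this group at 4985 and 4888 against 1084 and 1042 (2.20 ± 0.0661, adjusted p = 1.37e-07). For Vezt, Arhgap18 and Itga8, the rises of 2.37, 2.19 and 2.14 rest on probe sets at 23.4 units or less in both control arrays. These probe sets too passed the filter only through the transgenic arrays. A second Vezt probe set fell by 0.72, so the direction of Vezt depends on the probe set. Itga8, an integrin chain, rose on its second probe set as well, from 440.3 and 426 in control to 1574 and 1640.2.

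The largest falls were shared among acute phase, ketone, metal-binding, Z-disc and chemokine genes. Serpina3n, a secreted serine protease inhibitor of the acute phase, read 15.3 and 9.23 in the low line against 194 and 182 in control, a fall of 2.86 ± 0.38 (adjusted p = 0.000745). Bdh1, the mitochondrial enzyme that interconverts the ketone bodies, read 711 and 648 against 4794 and 4726 (log2 difference -2.78 ± 0.0832, adjusted p = 1.37e-07). Myot, the Z-disc protein myotilin, read 1152 and 1004 against 5743 and 5740.2 (-2.40 ± 0.0717, adjusted p = 1.37e-07). Here too the genes were picked for large called differences, so a gap between the groups is part of the choice. Cpxm2, a carboxypeptidase-like secreted protein gene, fell by 2.30 ± 0.0934 (220.0 and 214 against 1127 and 1144), and Fam107a, an actin-associated stress-response gene, by 2.02 ± 0.123 (144 and 170.1 against 681 and 688). The myeloid genes Ms4a6d (143 and 152 against 890.3 and 823) and Clec4d (30.8 and 49.6 against 218 and 206) fell by 2.42 and 2.04. Clec2d, a lectin ligand of natural killer cell receptors, fell by 2.03 ± 0.135 (845 and 589 against 3071 and 2799.5), and the 2-pore potassium channel gene Kcnk1 by 2.16 ± 0.275 (17.7 and 24.1 against 184 and 119).

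Genes that respond to glucocorticoids were mostly lower. Of 27 tested members of this list, 18 fell (66.7%, against 12.7% of all tested genes) and 3 rose, with a median log2 difference of -0.57; 8 members fell by at least 1. Between 15 and 17 fell when any 1 of the 4 arrays was left out. The metallothioneins, small cysteine-rich proteins that bind zinc and copper and are induced by metals and glucocorticoids, had the smallest p-values of the list. Mt2 read 1595 and 1441 in the low line, 7678 and 8214 in the controls and 1323 and 1344 in the high line, a fall of 2.38 ± 0.0663 (adjusted p = 1.15e-07). Mt1 read 6406 and 6519, 14946 and 14122, and 6366 and 6012, a fall of 1.17 ± 0.0523 (adjusted p = 1.82e-06). In both genes the 2 transgenic lines lay together, far below control. Ddit4, an inhibitor of the growth kinase mTORC1, fell by 1.60 ± 0.0853 (474 and 446 against 1533 and 1332), and Zbtb16, a transcription factor gene, by 1.22 ± 0.0676 (1048 and 995 against 2394 and 2399). Fkbp5, a co-chaperone of the glucocorticoid receptor, fell by 2.28 ± 0.272 (19.1 and 26.3 against 172 and 171), and the log2 difference on its brighter probe set was -1.06. Lcn2, the iron-siderophore carrier lipocalin, fell by 2.07 ± 0.195 (50.3 and 48.4 against 260.0 and 258). Angptl4, an inhibitor of lipoprotein lipase that PPAR receptors also induce, went the other way, at 782 and 791 against 248 and 226 (1.67 ± 0.115, adjusted p = 2.09e-05); its probe set carries the suffix that marks probes shared with other sequences, as does that of Mt1.

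The promoters of the 2 metallothionein genes are shown because both fell in both lines and lie next to each other in the genome. The windows run from 250 bases before to 50 bases after the gene start in the RefSeq promoters of GRCm38.p6, at chr8:94178839-94179138 for Mt1 and chr8:94172368-94172667 for Mt2, both on the + strand. Capitals mark matches, on either strand, to TGCNCNC, where N is any base. This is a loose form of the core of the metal response element.
Mt1: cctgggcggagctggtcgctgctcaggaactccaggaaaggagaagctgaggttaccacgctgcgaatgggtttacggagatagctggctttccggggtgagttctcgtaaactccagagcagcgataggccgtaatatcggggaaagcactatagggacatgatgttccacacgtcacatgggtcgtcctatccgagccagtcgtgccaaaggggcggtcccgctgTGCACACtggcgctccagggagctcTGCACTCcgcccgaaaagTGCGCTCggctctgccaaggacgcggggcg
Mt2: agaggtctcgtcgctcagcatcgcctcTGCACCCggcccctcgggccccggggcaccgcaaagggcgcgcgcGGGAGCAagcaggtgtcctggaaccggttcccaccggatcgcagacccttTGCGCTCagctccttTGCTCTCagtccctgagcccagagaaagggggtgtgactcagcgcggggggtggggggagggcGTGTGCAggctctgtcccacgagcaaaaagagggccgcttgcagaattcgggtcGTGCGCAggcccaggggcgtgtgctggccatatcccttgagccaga
Mt1 holds 3 matches and Mt2 holds 6. At least 1 match lies in 51.0% of all 32851 promoters of this length, and 3 or more lie in 7.10%. The full palindromic glucocorticoid response element matched 0 of the 32851 windows. A match is a description of letters and not a bound site.

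Immediate early genes, transcription factors induced within minutes of a stimulus, moved in both directions. Against control, 14.9% of all tested genes rose and 12.7% fell. Of 30 tested, 12 rose and 8 fell, with a median of 0.20; with median centring 10 rose and 9 fell. Egr1, a zinc finger factor, read 2001 and 1889 in the low line, 387 and 327 in the controls and 758 and 924 in the high line (2.40 ± 0.111, adjusted p = 2.25e-06). Fos, a subunit of the AP-1 factor, read 1205 and 1083, 227 and 240.3, and 214 and 227 (2.21 ± 0.103, adjusted p = 2.27e-06). For Fos the high line overlapped control, and the low line exceeded the high line by 2.29 (adjusted p = 7.05e-06). Jun, the partner of Fos in AP-1, fell by 0.75 ± 0.0707 (838 and 887 against 1498 and 1431). Ier3 fell by 0.81 ± 0.0774 and Klf4 by 0.58 ± 0.0622, while Ier2 rose by 0.67 ± 0.0942. The low line exceeded the high line in 14 of the 30 members and lay below it in 2, against 9.21% and 11.3% of all tested genes. In counts of members that fell, leaving out the first low array gave 4 and the second 8; of members that rose, both gave 7.

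Circadian clock genes moved in both directions. Among all tested genes 14.9% rose and 12.7% fell. Of 26 tested, 5 rose and 11 fell, with a median of -0.12, and 7 to 9 fell when 1 of the 4 arrays was left out. The D-box factor gene Dbp and 2 further output and repressor genes rose: Dbp read 4870.3 and 4904 in the low line, 2974 and 3024 in the controls and 2688 and 2736 in the high line (0.70 ± 0.0504, adjusted p = 2.47e-05). Per3, a period protein gene, read 511 and 537, 234 and 232, and 159 and 166 (1.12 ± 0.113, adjusted p = 0.000169). Nr1d2, the repressor REV-ERB beta, read 7301 and 7700.1, 5473 and 5570.3, and 4498 and 4359 (0.44 ± 0.0511, adjusted p = 0.000353). Per3 and Nr1d2 were below control in the high line, so the lines lay on opposite sides of control. Noct, which encodes the rhythmic protein nocturnin, fell by 1.11 ± 0.0632 (1224 and 1198 against 2596 and 2658), and Usp2, a rhythmic deubiquitinase gene, by 0.60 ± 0.0658. The sources used here do not give the time of day at which hearts were taken, and its part in these values was not tested. Arntl, the core activator BMAL1, read 157 and 124 against 135 and 153 and did not pass the test (adjusted p = 0.901). The Per3 promoter is shown because 2 copies of the D-box, the element that Dbp binds, lie in it; capitals mark TTATGTAA on either strand, and the window is chr4:151044616-151044915 of GRCm38.p6 on the - strand, printed 5′ to 3′.
Per3: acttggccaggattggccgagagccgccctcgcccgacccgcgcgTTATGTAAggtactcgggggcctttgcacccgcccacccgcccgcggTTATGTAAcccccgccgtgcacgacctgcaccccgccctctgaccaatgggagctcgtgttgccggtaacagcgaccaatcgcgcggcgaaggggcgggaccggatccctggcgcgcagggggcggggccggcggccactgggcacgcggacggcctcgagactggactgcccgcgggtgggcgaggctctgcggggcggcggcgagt
The D-box lies in 0.938% of all promoters of this length.

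**Figure D2:**
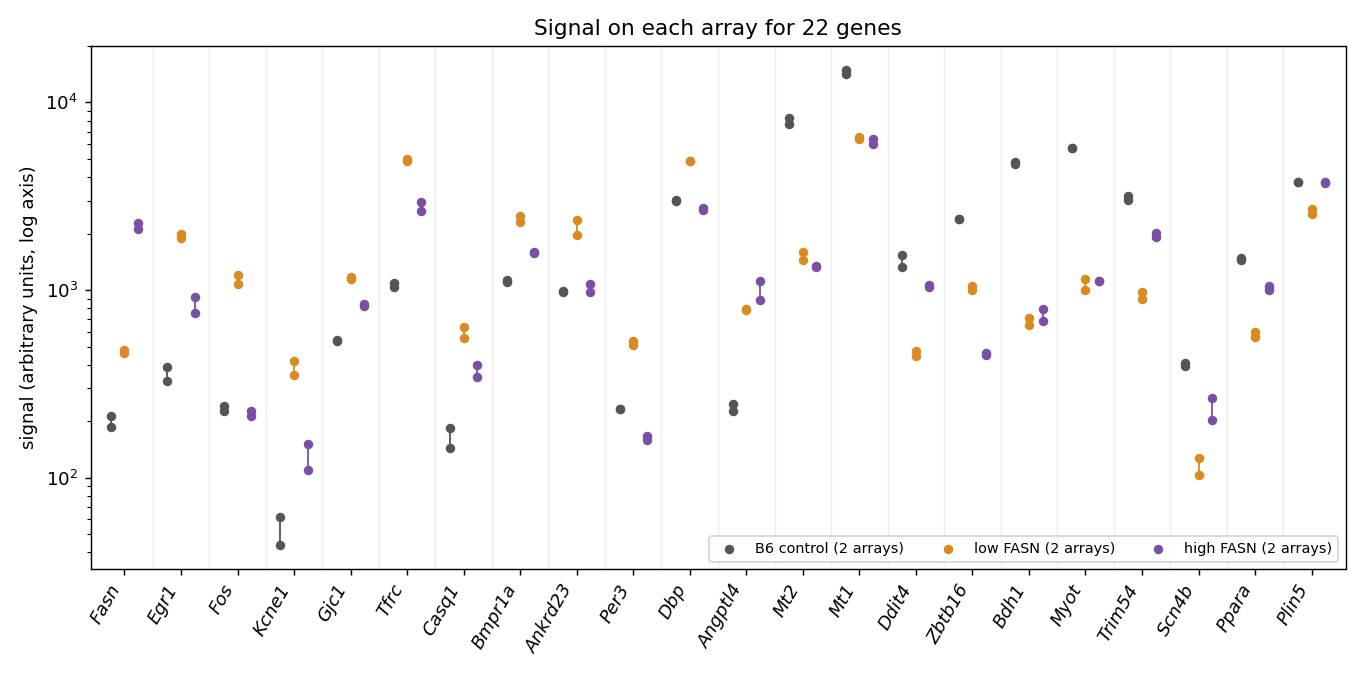
Signal on each of the 6 arrays for 22 genes (arbitrary units, log axis), with 2 points per group joined by a line: grey for B6 control, orange for low FASN and purple for high FASN. The genes shown were picked from those called, so the gap between low and control arrays is part of the choice. For Fos, Per3, Dbp and Plin5 the high line is at or beyond the control level.

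Genes of ketone, amino acid and glucose use were lower more often than higher. The shares over all tested genes were 12.7% lower and 14.9% higher. In pyruvate oxidation and the citric acid cycle 4 of 30 tested genes fell (13.3%, near that share), 1 rose and 25 were not called. In the list of ketone and branched-chain amino acid breakdown, 10 of 23 tested genes fell and 0 rose, with a median of -0.16; 4 or 5 fell when 1 of the 4 arrays was left out. Besides Bdh1, the 2 genes that moved most encode parts of the branched-chain ketoacid dehydrogenase. Bckdha, its E1 alpha subunit, read 1284 and 1307 in the low line, 2353 and 2576 in the controls and 1945 and 2098 in the high line (-0.92 ± 0.0684, adjusted p = 3.02e-05). Dbt, its E2 core, read 1687 and 1594 against 2565 and 2584 (-0.65 ± 0.082). Slc16a1, the monocarboxylate transporter that carries ketones and lactate, fell by 0.30 ± 0.053. In glycolysis, glucose and glycogen handling, 14 of 32 tested genes fell and 4 rose, with a median of -0.19; 8 to 10 fell when 1 array was left out. Slc2a1, the glucose transporter GLUT1, read 626 and 651 against 1135 and 1181 (-0.84 ± 0.0716, adjusted p = 6.29e-05). Slc2a4, the insulin-regulated transporter GLUT4, fell by 0.34 ± 0.06 (4074 and 3926 against 5110.0 and 5016). Hk2, hexokinase 2, fell by 0.41 ± 0.0492, Pygm, muscle glycogen phosphorylase, by 0.49 ± 0.059, and Ppp1r3c, a glycogen-targeting phosphatase subunit, by 0.50 ± 0.0503. Pygl, the liver form of glycogen phosphorylase, rose by 0.83 ± 0.111. Pfkfb2, the cardiac regulator of phosphofructokinase, rose by 0.86 ± 0.0888 on its brightest probe set and was called lower on another, so its direction depends on the probe set.

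In the lists of fatty acid oxidation and of PPAR alpha with its readouts, more genes fell than rose. Among all tested genes 12.7% fell and 14.9% rose. Of the 25 tested genes of the PPAR alpha list 7 fell, 3 rose and 15 were not called, with a median of -0.19. Of 24 tested genes of mitochondrial fatty acid oxidation, 10 fell and 2 rose with a median of -0.13, and with quantile normalization 9 fell and 3 rose with a median of -0.03; 4 to 6 fell when 1 of the 4 arrays was left out. Ppara itself read 595 and 565 in the low line, 1455 and 1478 in the controls and 1055 and 999.7 in the high line (-1.32 ± 0.0712, adjusted p = 5.11e-06). Esrrg, an orphan nuclear receptor that drives oxidative genes, fell by 0.53 ± 0.0658. Acot2, a mitochondrial acyl-CoA thioesterase, read 2028 and 1961, 3017 and 2954, and 3588 and 3494, so the low line was below and the high line above control (-0.58 ± 0.0539, adjusted p = 0.000108). The 3 genes of the PPAR alpha list that rose were Angptl4, given above, Ucp3 and Txnip: Ucp3, a mitochondrial carrier, rose by 0.71 ± 0.107 and Txnip, an inhibitor of glucose uptake, by 0.65 ± 0.054 (5791 and 6089 against 3676 and 3889). Pdk4, which restrains pyruvate oxidation, read 13135 and 13279.5 against 15232 and 14688 and missed the threshold (adjusted p = 0.0527). Ppargc1a, a coactivator of mitochondrial genes, did not pass either (adjusted p = 0.158), nor did the fatty acid transporter gene Cd36 (adjusted p = 0.108) or the lipase gene Lpl (adjusted p = 0.213). Fitted on the 4 arrays compared alone, these 4 genes passed as lower, with adjusted p = 0.00426 for Pdk4, 0.0213 for Ppargc1a, 0.0188 for Cd36 and 0.0166 for Lpl. The sign of Lpl turned with quantile normalization (0.0064) and cyclic loess (0.0222).

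Some genes of lipid droplets were among those that fell. The fat cell markers Cidec and Cidea, which also encode droplet proteins, rose by 1.34 ± 0.263 and 0.37 ± 0.0808. Plin3, a droplet coat protein, read 1593 and 1573 in the low line against 3342 and 3328 in control (-1.07 ± 0.0544, adjusted p = 3.75e-06). Plin5, the perilipin that ties droplets to mitochondria in oxidative tissue, read 2532 and 2707 against 3768 and 3783 (-0.53 ± 0.0547), and the high line read 3737 and 3776, like control. G0s2, an inhibitor of the triglyceride lipase ATGL, fell by 0.69 ± 0.0624, and Lpin1, a phosphatidate phosphatase, by 0.46 ± 0.049. Acsl6, an acyl-CoA synthetase, had a log2 difference of -1.31 ± 0.133. Fabp5, a fatty acid binding protein gene, rose by 0.89 ± 0.0517 (6249 and 6163 against 3299 and 3398). In the whole list of 32 tested lipid uptake, storage and lipolysis genes, 9 fell and 5 rose, and the median was -0.09. Among symbol families, the Coq genes of ubiquinone synthesis had the greatest share lower of all 189 families with at least 8 tested genes, 6 of 11 with 1 higher; 3 or 4 were lower when 1 array was left out. Coq8a fell by 0.46 ± 0.0499 (4453 and 4551 against 6223 and 6161) and Coq10a by 0.49 ± 0.0727, while Coq2 rose by 0.40 ± 0.0593. Of 8 hydroxysteroid dehydrogenase genes (Hsd), 4 were lower and 0 higher, including Hsd11b1, which regenerates active glucocorticoid in tissue (403 and 412 against 637 and 774, -0.76 ± 0.103). Of all tested genes 12.7% were lower and 14.9% higher. The families described were chosen for having the greatest shares, so a high share is part of the choice.

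While Tfrc rose, 3 other iron and copper genes with small p-values fell. Slc40a1, the iron exporter ferroportin, read 1096 and 1129 in the low line against 2265 and 1899.6 in control (-0.89 ± 0.0896, adjusted p = 0.000169). Cp, the ferroxidase ceruloplasmin, read 1655 and 1624 against 2824 and 2906 (-0.80 ± 0.0564), and Atp7a, a copper pump, 316 and 325 against 521 and 595 (-0.77 ± 0.105). Of 23 tested metal-handling genes 7 fell and 3 rose, against 12.7% and 14.9% of all tested genes. The list's median was 0.07, and -0.02 with median centring.

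More protein breakdown genes fell than rose, by small amounts. Over all tested genes, 12.7% fell and 14.9% rose. In the proteasome 17 of 34 tested genes fell and 4 rose, with a median of -0.18; with quantile normalization 13 fell, and 6 to 9 fell when 1 of the 4 arrays was left out. Psmb5, a catalytic subunit of the core particle, fell by 0.45 ± 0.0594 (2928 and 2925 against 4143 and 3874) and the ATPase subunit genes Psmc3 and Psmc2 by 0.44 ± 0.0613 and 0.38 ± 0.0497. Psmd2 and Psma5 rose by 0.42 ± 0.062 and 0.32 ± 0.0496. Of 36 tested autophagy, mitophagy and atrophy genes, 16 fell and 2 rose with a median of -0.14, and 11 to 15 fell when 1 array was left out. Foxo3, the transcription factor that drives many of them, read 1026 and 1067 against 1840.3 and 1909 (-0.83 ± 0.0676, adjusted p = 4.92e-05). Bnip3, a mitophagy receptor, read 5736 and 5795 against 9754 and 9918 (-0.77 ± 0.0461). The autophagy receptor gene Sqstm1, the LC3-like gene Gabarapl1, the ubiquitin ligase gene Fbxo31 and the lysosomal protease gene Ctsd fell by 0.64, 0.68, 0.68 and 0.52.

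Oxidant defence followed the same lean, with 17 of 42 tested genes lower and 5 higher and a median of -0.18; 10 to 13 were lower when 1 array was left out. The shares among all tested genes were 12.7% lower and 14.9% higher. Mgst1, a microsomal glutathione transferase, read 4409 and 4316 against 7824 and 7673 (-0.83 ± 0.0473, adjusted p = 6.73e-06). Gsta4 and Gstp1, cytosolic glutathione transferases, fell by 0.61 ± 0.0617 and 0.51 ± 0.0523, and Gpx4, which reduces lipid peroxides, by 0.52 ± 0.0603. Gstp1 in the high line read 7004 and 6641, at or above the control values of 6543 and 6539. Nnt, a mitochondrial source of NADPH that differs between C57BL/6 substrains, read 10455 and 10283 against 10588 and 10389 and did not pass the test (adjusted p = 0.827).

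Of tested endoplasmic reticulum stress genes, 24.1% rose and 10.3% fell, against 14.9% and 12.7% of all tested genes. Herpud1, of the degradation arm, fell by 0.80 ± 0.056 (2981 and 2941 against 5134 and 5219), and the co-chaperone gene Dnajb9 fell by 0.49 ± 0.0501. The disulfide isomerase gene Pdia3 rose by 0.50 ± 0.0602 (3977 and 3769 against 2848 and 2627). Manf, a secreted stress-response factor, read 1861 and 1905 in the low line, 1449 and 1465 in the controls and 985 and 964 in the high line, so that it rose by 0.37 ± 0.0609 in the low line and was lower than control in the high line. Of the 29 tested members 7 rose and 3 fell; without the second low array 2 rose. The low line exceeded the high line in 13 and was below it in 1, against 9.21% and 11.3% of all tested genes.

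The Z-disc, which anchors actin filaments, held some of the largest single changes in muscle genes. Among all tested genes 12.7% fell and 14.9% rose. Of 34 tested Z-disc, M-band and costamere genes 14 fell and 9 rose with a median of -0.09, and with quantile normalization 10 fell and 10 rose with a median of 0.00; leaving out 1 of the 4 arrays gave 7 to 9 that fell and 4 to 7 that rose. Trim54, a ubiquitin ligase of the sarcomere, read 892 and 979 in the low line, 3021 and 3165 in the controls and 2005 and 1912 in the high line (-1.71 ± 0.0678, adjusted p = 8.36e-07). Flnc, the actin cross-linker filamin C, read 372 and 419.9, 796 and 809, and 812 and 884 (-0.99 ± 0.0903, adjusted p = 9.47e-05). Ankrd23, a stretch-responsive ankyrin repeat protein gene, read 2359 and 1971, 993 and 978, and 1071 and 972 (1.12 ± 0.0913, adjusted p = 5.04e-05). For Flnc and Ankrd23 the high line lay near control, and the low line differed from it by -1.07 and 1.07 (adjusted p = 0.000157 for each). Synpo2l rose by 0.60 ± 0.0608 and its relative Synpo2 fell by 0.51 ± 0.0584; both encode Z-disc proteins. Of 25 tested contractile genes 4 rose and 5 fell, with a median of -0.11 that was 0.01 after cyclic loess.

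Calcium and channel genes changed one by one. Casq1, the calsequestrin form of skeletal muscle, read 556 and 636 in the low line, 184 and 144 in the controls and 345 and 401 in the high line (1.77 ± 0.141, adjusted p = 4.48e-05). Jph2, junctophilin of the cardiac dyad, fell by 0.59 ± 0.0612 (1373 and 1299.8 against 2022 and 2008). Camk2d, the main cardiac isoform of CaM kinase II, rose by 0.42 ± 0.073, and Camk2b fell by 1.21 ± 0.165 from 249 and 252 to 88.3 and 111. Rcan1 rose by 0.44 ± 0.0677 and Rcan2 fell by 0.36 ± 0.0449; both encode calcineurin regulators. Neither Pln (adjusted p = 0.915) nor Ryr2 (adjusted p = 0.706) nor Atp2a2 (adjusted p = 0.24) passed the test; these encode phospholamban, the ryanodine receptor and the calcium pump. Pln was called higher, by 0.12 and 0.13, with quantile normalization and cyclic loess (adjusted p = 0.0109 and 0.0421). Over the 31 tested calcium genes 6 rose and 7 fell, against 14.9% and 12.7% of all tested genes.

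Among ion channels and connexins 8 of 28 tested genes rose and 5 fell, against 14.9% and 12.7% of all tested genes. With median centring 7 rose and 8 fell. The gene for the channel pore that Kcne1 joins, Kcnq1, rose as well, from 255 and 295 in control to 502 and 446 (0.75 ± 0.111, adjusted p = 0.0013). Gjc1, connexin 45 of the conduction system, read 1142 and 1178 in the low line, 545 and 535 in the controls and 839 and 821 in the high line (1.08 ± 0.0718, adjusted p = 1.64e-05). Scn4b, a sodium channel beta subunit, read 104 and 127, 409 and 396, and 265 and 203 (-1.68 ± 0.16, adjusted p = 0.000121). Kcna5, the pore of an ultrarapid potassium current, read 329.7 and 353, 597 and 617, and 681 and 703 (-0.80 ± 0.0868), with the high line on the far side of control. Kcnj5, a subunit of the acetylcholine-gated potassium channel, rose by 0.47 ± 0.0681. The ventricular connexin gene Gja1 (adjusted p = 0.941) and Kcnd2, of the transient outward current (adjusted p = 0.188), did not pass; after quantile normalization or cyclic loess Gja1 was called higher, by 0.13 each (adjusted p = 0.0146 and 0.0223). In cAMP signalling, the phosphodiesterase genes Pde4d and Pde7a fell by 0.75 ± 0.0622 and 0.65 ± 0.101 while Pde1c rose by 0.62 ± 0.072, and the inhibitory G protein gene Gnai3 rose by 0.43 ± 0.0724.

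**Figure D3:**
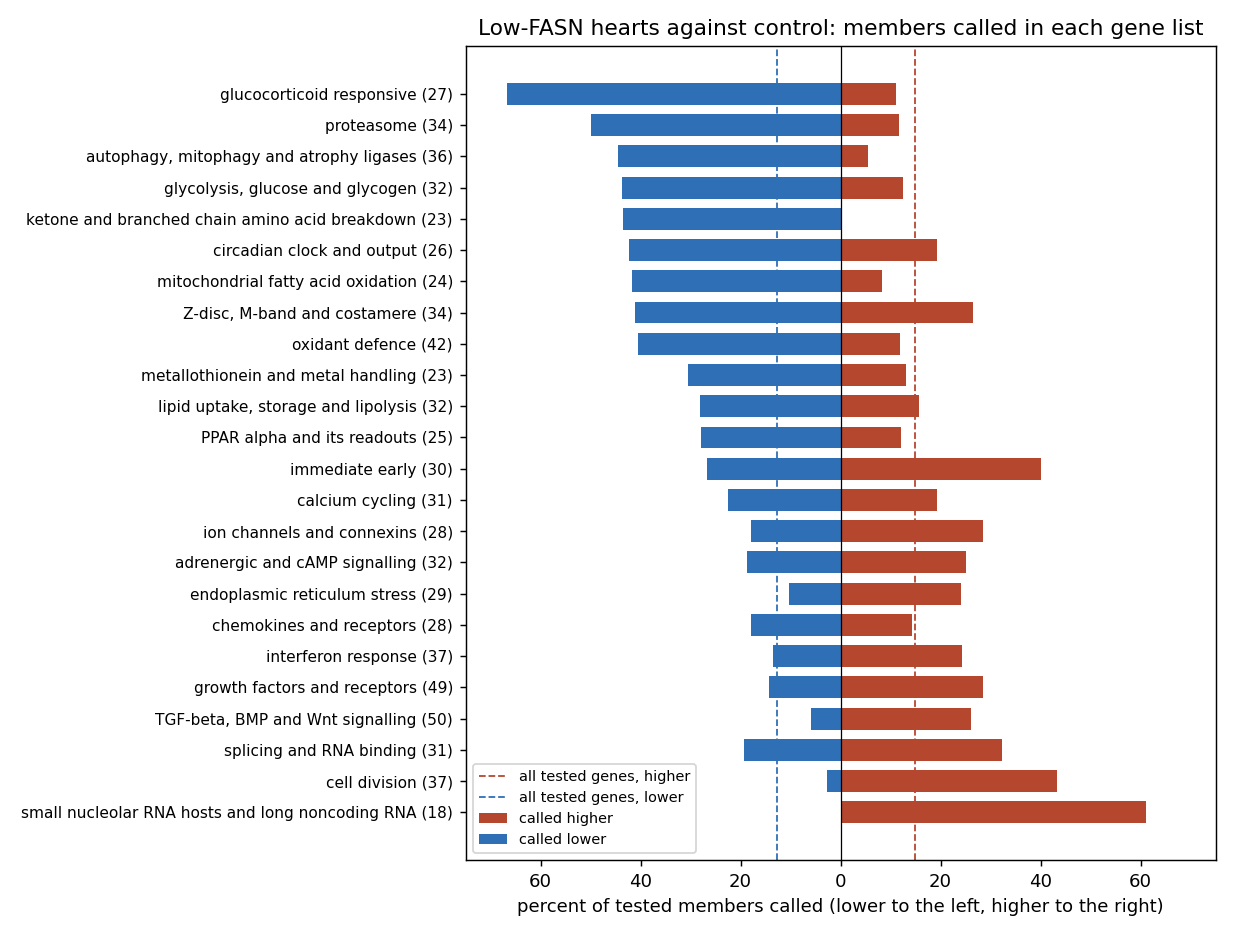
Percent of tested members called lower (blue, left) or higher (red, right) in the low line against control for 24 gene lists, with the number tested in parentheses; dashed lines mark the 14.9% higher and 12.7% lower of all tested genes. Glucocorticoid-responsive genes reach 66.7% lower and small nucleolar RNA hosts 61.1% higher. The dashed lines take no account of signal: in the brightest of 5 groups of tested probe sets, 25.5% were lower.

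Growth factor genes were higher in 14 of 49 tested members and lower in 7, with a median of 0.16; with median centring 10 were higher and 9 lower, and 9 or 10 were higher when 1 array was left out. The shares over all tested genes were 14.9% higher and 12.7% lower. Igf1 read 1309 and 1279 in the low line against 778 and 811 in control (0.69 ± 0.0716). Irs1, the docking protein of its receptor, read 1890.5 and 1901 against 1040.0 and 1049.7 (0.85 ± 0.0623, adjusted p = 2.79e-05). The binding protein genes Igfbp3, Igfbp5 and Igfbp7 rose by 1.17 ± 0.115, 0.68 ± 0.0549 and 0.64 ± 0.0526. Aplnr, the apelin receptor of endothelium, rose by 1.05 ± 0.0883, and Fgf13, an intracellular sodium channel modulator, fell by 0.55 ± 0.0515. Vegfa, the endothelial growth factor, did not pass (955 and 971 against 1020.2 and 1095, adjusted p = 0.245).

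In TGF-beta, BMP and Wnt signalling, 13 of 50 tested genes rose and 3 fell, with a median of 0.11. Among receptors, Bmpr1a, a type I BMP receptor, read 2314 and 2489.8 in the low line, 1126 and 1100.1 in the controls and 1583 and 1587 in the high line (1.10 ± 0.063, adjusted p = 6.73e-06), and Fzd2, a Wnt receptor, rose by 1.12 ± 0.158. Among ligands and secreted modulators, Gdf10 rose by 1.14 ± 0.162, Sfrp2 by 1.13 ± 0.128, Fstl1 by 0.71 ± 0.0618 and Ltbp1, which tethers latent TGF-beta, by 0.59 ± 0.0803. Of 6 fibroblast markers 4 were higher, while Dcn and Dpt were not called (-0.07 and -0.03). The 6 summed to 26986 and 28163 against 26620 and 25703. Of the symbol families, Adamts proteases had the greatest share higher, 6 of 10 with 0 lower and a median of 0.48, and 2 to 4 were higher when 1 array was left out. Of all tested genes 14.9% were higher and 12.7% lower, and the families named here were chosen for their great shares. Adamts12 read 178 and 169 against 49.5 and 37.2 (1.69 ± 0.192, adjusted p = 0.000322) and Adamts15 rose by 0.92 ± 0.134. Annexins, which bind membranes in the presence of calcium, were higher in 4 of 9 and lower in 1, with 2 higher when any 1 array was left out, and Anxa5 rose most, from 1315 and 1228 to 2783 and 2801 (1.13 ± 0.0616, adjusted p = 5.34e-06). Of 9 Dock genes, activators of small GTPases, 4 were higher and 0 lower, led by Dock4 (0.70 ± 0.0983) and Dock11 (0.63 ± 0.104); 2 or 3 were higher when 1 array was left out.

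Chemokine genes fell in few members but by large amounts. Of 28 tested chemokines and receptors 5 fell (17.9%, against 12.7% of all tested genes) and 4 rose (14.3%, against 14.9%). All 5 that fell did so by at least 1, as did 0.947% of all tested genes. The brightest Ccl9 probe set read 613 and 548 in the low line, 2251 and 2281 in the controls and 433 and 457 in the high line (-1.94 ± 0.0805, adjusted p = 1.06e-06), and the dimmer one, which is among the 20 largest falls, fell by 1.96. Ccl6 read 653 and 659 against 2253 and 2544 (-1.84 ± 0.0801). Ccl11, which attracts eosinophils, read 91.2 and 121 against 505 and 544 (-2.16 ± 0.154), and Ccl8 127 and 139 against 418 and 399.7 (-1.52 ± 0.154). Cxcl14 fell by 2.56 ± 0.288 (30.3 and 63.8 against 348 and 339). Ackr3, a scavenging receptor for Cxcl12, rose by 0.48 ± 0.0495. Of the 4 neutrophil markers 2 were tested, S100a8 and S100a9, both lower, and the other two were under 50 units on every array; the list summed to 154 and 167 in the low line against 302 and 298 in control. The part of myeloid cells in these falls was not tested.

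Interferon-induced genes did not move as a block, with 9 of 37 tested higher and 5 lower and, after quantile normalization, 7 and 7. Over all tested genes, 14.9% were higher and 12.7% lower. Gbp6, a guanylate-binding protein gene, fell by 1.18 ± 0.0852 (440.4 and 429 against 995 and 1014) and the antiviral tether Bst2 by 0.68 ± 0.0943. Iigp1, an immunity-related GTPase gene, rose by 0.64 ± 0.06 (3908 and 3776 against 2404 and 2529), Ifi27 by 0.76 ± 0.0802, Parp9 by 0.80 ± 0.134 and the transcription factor gene Irf1 by 0.60 ± 0.0851.

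Host genes of small nucleolar RNAs, whose introns carry guides for RNA modification, had the greatest share higher of the pathway lists outside matrix and immunoglobulin genes. Among all tested genes 14.9% rose and 12.7% fell. Of 18 tested members, which include other long noncoding RNAs, 11 rose and 0 fell, with a median of 0.56; 6 to 10 rose when 1 of the 4 arrays was left out. Snhg1 read 979.9 and 999 in the low line, 527 and 568 in the controls and 727 and 748 in the high line (0.84 ± 0.0774, adjusted p = 0.000105). Mir22hg, which hosts a microRNA of the heart, rose by 1.38 ± 0.132 (662 and 826 against 305 and 246), Snhg4 by 0.93 ± 0.123 and Snhg8 by 0.58 ± 0.0846. Snhg14 read 302 and 294, 147 and 116, and 75.7 and 89.4 in the same order (1.10 ± 0.17, adjusted p = 0.00171), with the high line below both control arrays. Among splicing genes 10 of 31 rose and 6 fell, and with median centring 8 and 8. Srsf5, a serine- and arginine-rich splicing factor gene, rose from 2118 and 1931 in control to 4161 and 3987. Clk1 and Clk4, kinases of such factors, rose by 0.67 ± 0.0787 and 0.71 ± 0.122, and Rbm20, which sets titin splicing in the heart, by 0.50 ± 0.0672. Mbnl2, a splicing regulator of muscle, fell by 0.27 ± 0.0461.

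Of 37 tested cell division genes 16 were higher, 1 was lower and 20 were not called, with a median of 0.30; 9 to 13 were higher when 1 array was left out. Over all tested genes, 14.9% were higher and 12.7% lower. Pcna, the sliding clamp of DNA replication, read 1969 and 2024 against 1399 and 1346 (0.54 ± 0.0604, adjusted p = 0.000305). Mcm7, a subunit of the replicative helicase, rose by 0.76 ± 0.105, Cdk2, a kinase of the cell cycle, by 0.97 ± 0.14 and Cks2, its partner, by 1.08 ± 0.18. The cells in which these genes were expressed cannot be told apart here.

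**Figure D4:**
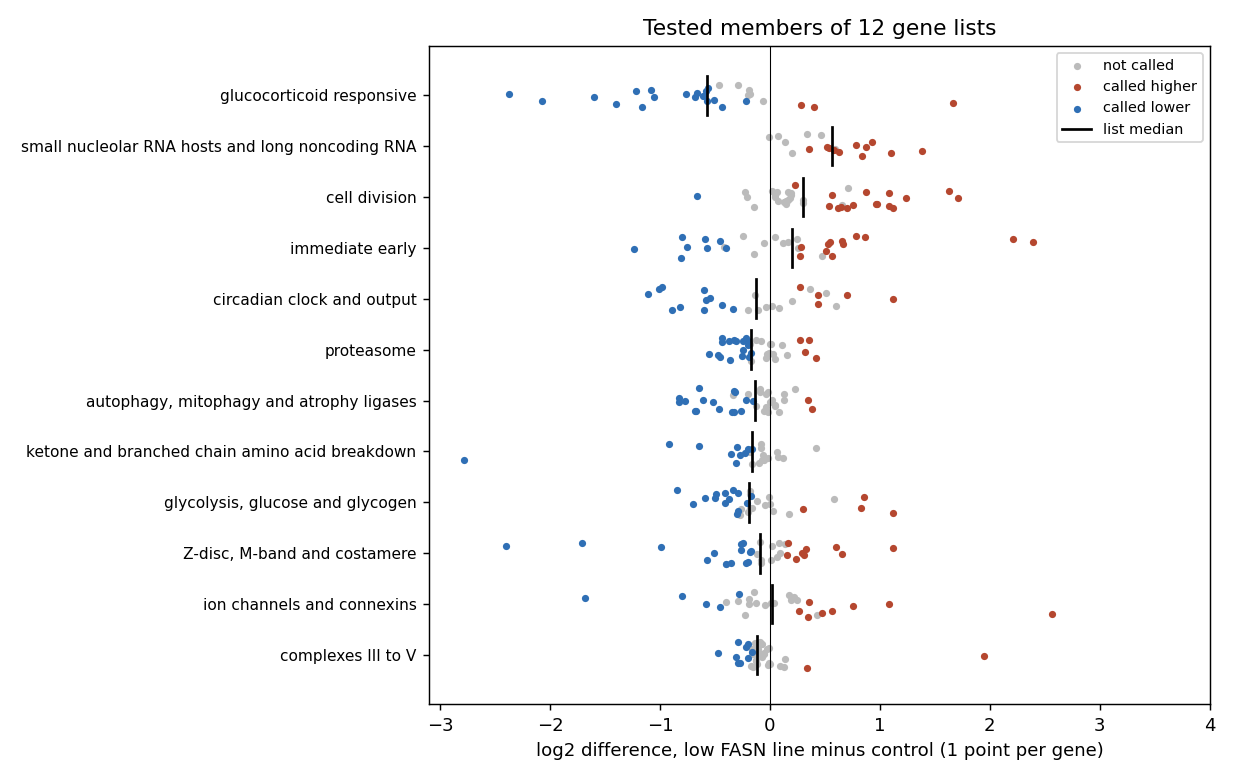
Log2 difference between the low line and control for each tested member of 12 gene lists (1 point per gene; grey not called, red called higher, blue called lower), with a black bar at each list's median. Glucocorticoid-responsive genes centre at -0.57 and small nucleolar RNA hosts at 0.56, while ion channels centre at 0.02 with single genes beyond 2.

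Mitochondrial ribosome and respiratory chain genes depended on the scaling to different degrees. Against control, 12.7% of all tested genes were lower and 14.9% higher. In the Mrpl family of the large mitochondrial ribosomal subunit, 23 of 47 tested genes were lower and 5 higher, with a median of -0.17; quantile normalization left 20 lower, median centring 26, and leaving out 1 array 13 or 14. Mrpl14 fell by 0.72 ± 0.0644 (1192 and 1197 against 1979 and 1982), Mrpl1 by 0.74 ± 0.08 and Mrpl40 by 0.66 ± 0.0716. In respiratory complex I, 7 of 33 fell and 1 rose with a median of -0.12, but 3 fell with quantile normalization, 0 with cyclic loess and 20 with median centring, and 0 or 1 when 1 of the 4 arrays was left out. In complexes III to V, 9 of 42 fell and 2 rose, and quantile normalization gave 6 that fell and 9 that rose, and leaving out 1 array 3 to 5 that fell. Against the high line, 22 of the 33 complex I genes and 31 of the 42 others were lower in the low line. The share over all tested genes was 11.3%. How far these 2 counts depend on the scaling was not tested. Ogdh, a subunit of the 2-oxoglutarate dehydrogenase of the citric acid cycle, read 3209 and 3095 in the low line, 5091 and 5031 in the controls and 6493 and 6250.4 in the high line (-0.68 ± 0.0507, adjusted p = 3.02e-05).

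Some called genes lay side by side in the genome. These runs were found after the values were seen, in the gene order of RefSeq. On the X chromosome the neighbours Armcx4, Armcx1, Armcx3 and Armcx2, armadillo repeat genes, were higher by 0.52, 1.11, 0.77 and 0.99, and Tceal8, Bex1, Tceal9 and Bex3 by 0.95, 0.98, 0.73 and 0.94. On chromosome 2 Adamtsl2, Dbh, Sardh and Vav2 were higher by 0.87, 0.64, 0.90 and 0.61. On chromosome 17 Hdgfl2, Plin4, Plin5 and Lrg1 were lower by 0.67, 0.59, 0.53 and 1.68. Of 358 tested genes on the X chromosome 84 were higher and 40 lower, 34.6% called, the greatest share of any chromosome; the others lay between 21.6% and 32.0%.

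The low line was not a weaker copy of the high line in every gene. Both lines were set against the same 2 control arrays, so only the direct difference between them is tested here. Of all 11512 tested genes 10% were higher and 6.99% lower in the high line against control. Among genes that differed both from control and from the high line, 12 with the largest excess over the high line were taken, and Dmd, Fos, Kcne1, Gas5, Snhg14 and Per3 were among them. Dmd, which encodes dystrophin, read 199 and 214 in the low line, 26.7 and 16 in the controls and 20.7 and 38.4 in the high line on this probe set, 2.31 above the high line (adjusted p = 0.000913). That probe set lay under 49.0 units in control and in the high line, so it was tested only through the low arrays. The brightest Dmd probe set read 2200.4 and 2157, 1740.1 and 1716, and 1306 and 1417. Gas5, a small nucleolar RNA host, read 333 and 312, 102 and 90.0, and 94.0 and 95.2 (1.61 above the high line, adjusted p = 0.000298). Hnrnpu, an RNA-binding protein gene, read 411 and 433, 94.9 and 100.1, and 138 and 101 (1.71 above the high line, adjusted p = 0.000312). Of 4 other tested Hnrnpu probe sets, 1 rose by 0.49 and 3 did not rise, and the brightest, at 3741 and 3754 against 3928 and 3847, did not pass the test (adjusted p = 0.482). The remaining genes of the 12 are Rbm25, Rps24, Tpm1, Psme4 and Ttc14. Of the 11 of the 12 genes with other tested probe sets, 7 had one that was not called against control, 10 had one called higher too and 1 had one called lower. Of the 12 genes furthest below the high line, 7 had other tested probe sets, of which 5 genes had one that was not called, 5 had one called in the same direction and 0 had one called in the opposite direction.

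Differences in the other direction were as large. Fasn was 2.18 below the high line (adjusted p = 6.09e-06), and the genes Scgb1a1, Ucp1, Pck1 and Scd1 were higher than control in both lines and lower in the low line than in the high line. Among the genes chosen here, 7 fell in the low line and were near control in the high line. Ttll1, a tubulin-modifying enzyme gene, read 2094 and 2028 in the low line, 7974 and 7914 in the controls and 8806 and 8749 in the high line (-1.94 ± 0.048 against control, adjusted p = 5.76e-08). Spag7 read 625 and 686, 2008 and 1994, and 2229 and 2175 (-1.59 ± 0.0674, adjusted p = 1.22e-06). Rsrp1, an arginine- and serine-rich protein gene, read 148 and 143, 756 and 746, and 693 and 701 (-2.25 ± 0.0909, adjusted p = 8.78e-07). The other such genes were Agtrap, Tmppe, Slc25a29 and Ndrg1, each on a probe set under 40 units in the low line. The Ttll1 and Slc25a29 probe sets carry the suffix for probes that may match other sequences, and the second Ttll1 probe set fell by 0.85. Other Rsrp1 probe sets read 2256 and 2148 against 2706 and 3568 (adjusted p = 0.0605) and fell by 0.48 on the third.

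**Figure D5:**
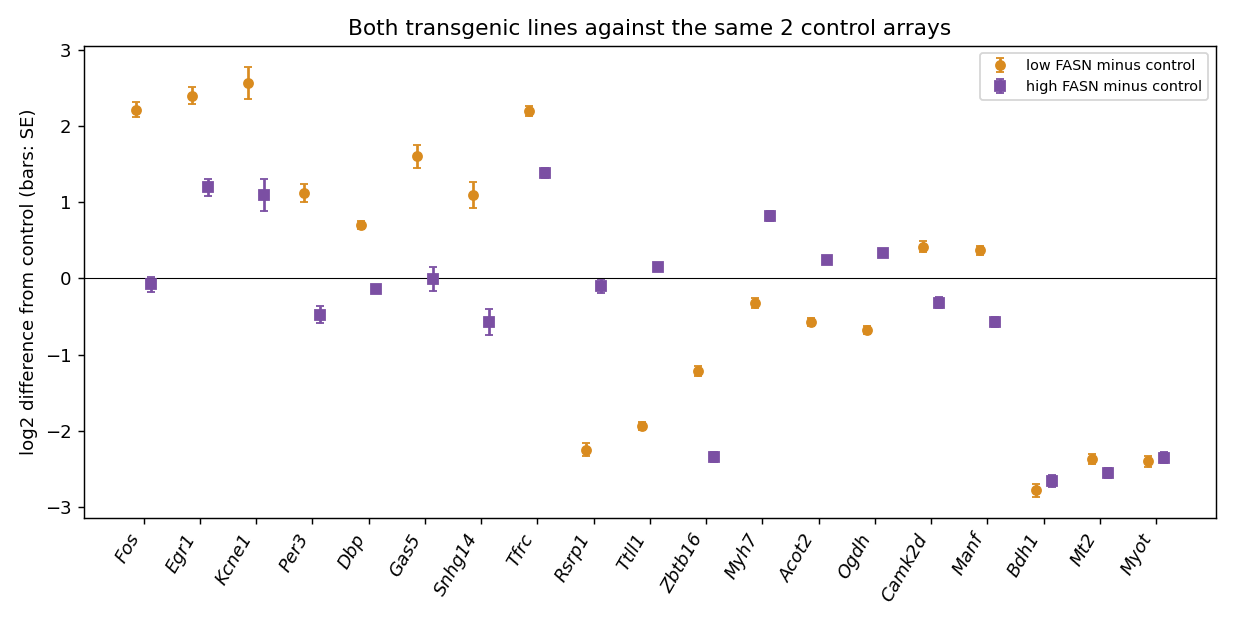
Log2 difference from control (with SE) in the low line (orange circles) and the high line (purple squares) for 19 genes; both comparisons use the same 2 control arrays. Fos, Gas5 and Ttll1 moved by over 1.5 in the low line and lay within 0.2 of control in the high line, while Bdh1, Mt2 and Myot fell in both.

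Genes on opposite sides of control in the lines included Myh7, the slow myosin heavy chain, at 1129 and 1208 in the low line, 1444 and 1487 in the controls and 2692 and 2497 in the high line. Its fall of 0.32 ± 0.0672 against control (adjusted p = 0.00737) was lost without the first low array (adjusted p = 0.0743) or the second control array (adjusted p = 0.0569). Zbtb16 was lower than control in both lines, and the low line lay 1.13 above the high line (adjusted p = 3.03e-05). Klf12, a Kruppel-like repressor gene, read 784 and 686, 1129 and 1032, and 1461 and 1354 (-0.55 ± 0.0874, adjusted p = 0.002). Of the load-induced genes, Nppb, the B-type natriuretic peptide, read 9438 and 9284 in the low line against 6405 and 6141 (0.58 ± 0.0564), and Acta1, skeletal actin, rose by 0.63 ± 0.0579. Nppa, the atrial natriuretic peptide, at 19282 and 19210.2 against 20509.8 and 20774, did not pass the test (adjusted p = 0.161), nor did Myh6 (adjusted p = 0.0886); fitted on the 4 arrays compared alone, both passed as lower (adjusted p = 0.0322 and 0.00642), and their sign turned after quantile normalization.

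Probe sets of the same gene sometimes disagreed. Among 5119 genes with several tested probe sets, 20 (0.391%) had probe sets called in opposite directions by at least 0.5 each in the low line against control, and 5 (0.098%) in the high line. Examples chosen after their values were seen are Tmem106b, with one probe set at -0.82 and another at 0.81, and Pde4dip, at -0.60 and 1.18. Probe sets can read different transcripts of a gene, so the named values hold for the probe set read.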

How the data were processed

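The authors deposited 1 linear signal intensity per probe set for 6 single-colour Affymetrix arrays of total heart RNA, extracted with a column kit and labelled as biotin cRNA per the labels' protocols. GCOS is named in the submitters' processing notes; the sources used here do not give its version, the summary algorithm or the scaling target. The mean trimmed by 2% at each end was nearly equal on all arrays, so a change shared by most genes could not be seen. Groups followed the sample titles. Of 45101 probe sets, 64 array controls were left out, and 22519 of 45037 with a mean signal of at least 49.0 were tested. Values were taken as log2(signal + 16) and fitted for all 3 groups together with limma 3.58.1 in R 4.3.3 (lmFit and eBayes with an intensity trend). Benjamini-Hochberg adjustment ran over all tested probe sets, with a threshold of 0.05. The script was tested on simulated data.

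Probe sets were named from the platform annotation where it gave 1 symbol (34945; 932 had several and 9160 none), and each gene of a list was read from its brightest probe set. The members and lists were chosen with earlier results of these data known. The text names Fasn; the top 20 genes by rise and the top 20 by fall outside matrix, immunoglobulin and heat shock genes; for each list or symbol family described, as many as 6 members in order of p; the 12 largest differences from the high line in each direction; and a fixed panel. Marker genes, neighbours in the genome and disagreeing probe sets are named besides. Cpt1b of the panel was not analysed here. Alternatives were other scalings, pseudocounts, filters, moderation and left-out arrays. A filter on the mean log2 value was added after the data were seen.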

Additional observations from a re-analysis of the deposited data

Results flagged for a closer look

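Some genes differed between the low and the high line, each comparison with control using the same 2 control arrays; the values are direct differences, low minus high, on the log2 scale, from limma with adjustment over all tested probe sets. Lower in the low line were Scgb1a1 by -3.04 (adjusted p = 2.18e-05), Scd1 by -2.18 (adjusted p = 2.78e-07), Fasn by -2.18 (adjusted p = 6.09e-06), Rsrp1 by -2.14 (adjusted p = 6.09e-06) and Ttll1 by -2.08 (adjusted p = 1.07e-07). Higher in the low line were Dmd by 2.31 (adjusted p = 0.000913) and Fos by 2.29 (adjusted p = 7.05e-06).

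A further set lay on opposite sides of control in the lines. Per3 differed by 1.60 (adjusted p = 6.97e-05), Manf by 0.94 (adjusted p = 4.79e-05) and Nr1d2 by 0.76 (adjusted p = 5.75e-05), each higher than control in the low line and lower in the high line. Myh7 differed by -1.14 (adjusted p = 2.94e-05), Ogdh by -1.01 (adjusted p = 1.23e-05), Klf12 by -0.92 (adjusted p = 0.000263) and Acot2 by -0.82 (adjusted p = 4.85e-05), each lower than control in the low line and higher in the high line. With 1 line for each FASN level, the level cannot be told apart from other differences between the lines.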

How the results depend on the processing

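The 5494 calls against control became 3595 without the intensity trend and 3454 with 1 probe set per gene, and lay between 2925 and 6492 when 1 of the 6 arrays was left out. The 4165 calls against the high line became 1444, 2621 and 1556 to 4154 in the same order. The 626 differences of at least 1 became 314 with a pseudocount of 64, 248 in the brightest 25% and 302 with 1 probe set per gene. The other alternatives kept these 3 counts within 1.5 times. The cause was not tested, except that fewer probe sets or arrays were used where some were left out. Deviations of same-numbered arrays from their group means correlated at 0.036, 0.002 and 0.024. These values cover all tested probe sets together, so they cannot show whether same-numbered arrays shared a batch that touched some of them. With a replicate block 5646, 4297 and 643 were called.

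Signs turned under some alternatives for 9 genes that did not pass the test in the main setting. With quantile normalization and cyclic loess the log2 differences were 0.0045 and 0.0359 for Nppa, 0.0196 and 0.0139 for Myh6, 0.0104 and 0.0362 for Atp2a2, 0.1191 and 0.1343 for Pln, 0.0064 and 0.0222 for Lpl and 0.0869 and 0.0843 for Nnt. Pln passed as higher under both (adjusted p = 0.0109 and 0.0421), as did Gja1 (adjusted p = 0.0146 and 0.0223). With median centring the differences were -0.0339 for Ryr2 and -0.0759 for Gja1. Leaving out 1 array gave -0.0552 to 0.0306 for Pln (0.0208 without the first low array), -0.0778 to 0.175 for Ryr2, -0.0345 to 0.0477 for Gja1 and -0.1885 to 0.1138 for Arntl (0.0446 without the second control array). The cause was not tested. In the bright genes Myh6 and Nppa the sign turned only with quantile normalization and cyclic loess. When 1 array was left out, Myh6 stayed between -0.1585 and -0.1232 and Nppa between -0.1101 and -0.0917. The dimmer Arntl kept its sign under both scalings (-0.106 and -0.1067). With 2 arrays in a group, its sign depended on which array was left out. Without the intensity trend the calls of Slc16a1 (adjusted p = 0.0736), Slc2a4 (0.0611), Psma5 (0.0518), Mbnl2 (0.0703) and Myh7 (0.0667) were lost, as were the differences from the high line of Pck1 (0.0567) and Tmppe (0.0507); Psme4 was lost without the first low array (0.0531).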
